A study of Homo sapiens with 12 samples.

Results

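The 6 arrays of the Dharmacon pair, of the 12 in the series, fell into a pair of array states that did not follow the labelled treatment. State 1 held ZNF658 siRNA 2 replicates 1 and 2 and control siRNA 2 replicate 3 (3 arrays), and state 2 held ZNF658 siRNA 2 replicate 3 and control siRNA 2 replicates 1 and 2 (3 arrays). The grouping was chosen from the correlations between these arrays, so every value below that sets state 1 against state 2 is a description and carries no test. The arrays labelled ZNF658 siRNA 2 replicate 3 and control siRNA 2 replicate 3 are the 2 placed in the other state from the rest of their labelled groups. By correlation over the probes tested, only control siRNA 2 replicate 3 stood apart from its labelled group. ZNF658 siRNA 2 replicate 3 correlated with replicate 1 of its group as closely as replicate 2 did, but less closely with replicate 2. Probe counts, chromosome shares, some gene lists and the calls by label are also given without these 2 replicate 3 arrays. Most other values are given only with them.

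All 12 arrays were labelled as Caco-2, an established human colonic adenocarcinoma line. The cells were transfected with siRNA by lipofection, and total RNA was profiled on Illumina HT12 bead chips. ZNF658 siRNA 2 and control siRNA 2 were Dharmacon reagents (3 arrays each), and ZNF658 siRNA 1 and control siRNA 1, which served as the other pair, were Ambion reagents (3 arrays each). ZNF658 is a zinc finger protein with a KRAB domain that was studied as a binder of the zinc transcriptional regulatory element (ZTRE). No probe that could be named here measured ZNF658, so the labels could not be checked against the targeted transcript. Nothing in the labels says that the replicates of a group were separate cultures, so the spread between them may be technical.

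Most of the gene lists below belong to processes that every cell uses. Ribosomal RNA is made by RNA polymerase I and carries no poly(A) tail of the kind that mRNA has, and bead chip labelling primes from such tails. Mitochondrial ribosomes translate the few proteins that the mitochondrial genome encodes, and most subunits of the respiratory chain come from the nucleus. Keratins, desmosomes and claudins hold epithelial cells such as Caco-2 together, and colon carcinoma lines take much of their energy from glycolysis.

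Of the Caco-2 and intestinal markers listed, 9 of 14 had a named probe and 8 were detected on all 12 arrays. These 8 were CDX2, CDH17, APOA1, EPCAM, CDH1, KRT8, KRT18 and KRT19, which include general epithelial genes. CDX2 lay at 9.73 to 10.90 in state 1 and 9.38 to 9.75 in state 2 on the log2 scale. CDH17, a cadherin of intestinal epithelium, lay at 8.00 to 8.82 in state 1 and 8.57 to 8.91 in state 2. APOB was detected on 9 arrays, and VIL1, HNF4A, KRT20, LGALS4 and FABP1 had no named probe. Names were at hand for 15543 of the 47231 probes, so the lack of a named probe does not show a lack of signal. Trophoblast markers were also present: 12 of the 14 listed were detected on all 12 arrays, among them PAGE4 at 13.64 to 13.89 in state 1 and 13.86 to 14.09 in state 2 and TFAP2C at 12.06 to 12.51 in state 1 and 12.36 to 12.42 in state 2. The mean level over the detected trophoblast markers ranged from 9.39 to 9.65 in state 1 and from 9.40 to 9.45 in state 2. Listed intestinal or epithelial markers and a set of trophoblast genes were thus both detected on arrays labelled Caco-2. What that says of the line was not tested. Of the squamous, mesenchymal and blood markers, 1 of 6, 4 of 7 and 2 of 7 had a named probe. The mesenchymal genes COL1A1, COL1A2 and VIM were detected on all 12 arrays, COL1A2, a collagen chain, at 9.68 to 10.36 in state 1 and 9.32 to 9.90 in state 2. CD14, a monocyte co-receptor, was detected on all 12 arrays, at 7.43 to 7.92 in state 1 and 8.41 to 8.77 in state 2, and the squamous marker SFN on 8, at 5.71 to 6.58 in state 1 and 4.79 to 6.17 in state 2. The part of these markers in the results below was not tested.

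The states were not equally tight. Across the 14804 probes tested, the 3 arrays of state 2 correlated at 0.987 or more with each other, and those of state 1 at 0.960 to 0.982. Between the states the correlations ran from 0.944 to 0.983. ZNF658 siRNA 2 replicate 1 correlated at 0.982 and 0.960 with the other arrays of state 1, ZNF658 siRNA 2 replicate 2 and control siRNA 2 replicate 3. With state 2 it correlated at 0.983 with ZNF658 siRNA 2 replicate 3 and at 0.979 and 0.976 with control siRNA 2 replicates 1 and 2. The correlations over all probes thus go against its place in state 1, which is kept here as the grouping was given. Control siRNA 2 replicate 3 correlated at 0.960 and 0.973 with the other arrays of state 1, at 0.944 to 0.948 with state 2 and at no more than 0.957 with any Ambion array. State 1 is therefore 2 moderately shifted arrays and 1 strongly shifted array. Detected probes ran from 14454 to 16167 over the 12 arrays, with 14528, 14990 and 15743 in state 1 and 15472, 15180 and 15529 in state 2.

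**Figure D1:**
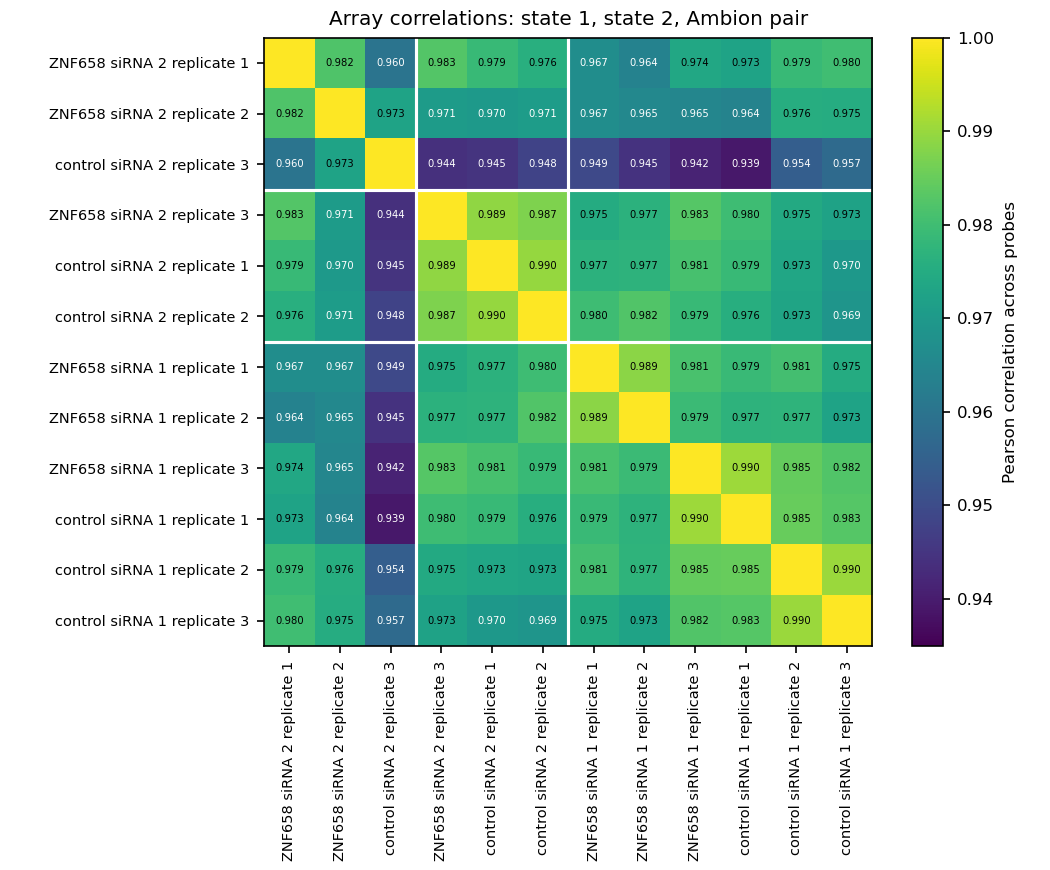
Pearson correlations of log2 levels across 14804 probes between all pairs of the 12 arrays, ordered as state 1, state 2 and the Ambion pair, with white lines between these blocks. The state 2 block sits at 0.987 or more, and the row of control siRNA 2 replicate 3 is the darkest, at 0.939 to 0.973.

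A probe was taken as separating the states where all 3 arrays of one state lay above all 3 of the other. At a mean difference of 2-fold or more, 302 probes were higher in state 1 (2.04% of those tested) and 39 were lower (0.263%). At 1.2-fold or more, 2060 probes were higher (13.9%) and 2453 were lower (16.6%). The labelled groups, ZNF658 siRNA 2 against control siRNA 2, did not overlap at 1.2-fold or more for 1088 probes (7.35%) and at 2-fold or more for 28. The 341 probes that separated the states 2-fold included 300 named ones from 282 genes. Just inside the 2-fold limit lay SIN3B with a log2 difference of 1.0012 and TDP2 with −1.0012, and just outside it SAR1B with −0.9998 and STRN4 with 0.9957.

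The balance of the 2-fold set depended on the scaling of the arrays. After background correction and median scaling, 151 of 304 probes were higher in state 1, and the median of all probes moved to −0.23 on the log2 scale, against −0.06 with the quantile-normalized values. At 1.2-fold the same scaling gave 5062 probes, of which 632 were higher. The authors' own log2 values gave 35 higher and 1 lower at 2-fold. For the gene lists below, counts are given beside the shares of all named genes, and list medians relative to the median of all named genes, which was −0.04.

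Control siRNA 2 replicate 3 carried much of the 2-fold set. It was the highest of the 3 arrays of state 1 for 266 of the 302 higher probes, lay between the others for 14 and was the lowest for 22. For the 39 lower probes it was the lowest in 20. Without it, 174 probes separated the states at 2-fold, 133 of them higher, and 107 of the 174 were among the 341. With both Dharmacon replicate 3 arrays left out, 248 probes did so, 168 of them higher, and 133 were shared with the 341.

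The largest named differences were in ribosomal RNA. All levels are log2 values after background correction and quantile normalization. The 18S probe, RNA18SN5, read 13.99 and 14.55 on ZNF658 siRNA 2 replicates 1 and 2 and 11.56 on control siRNA 2 replicate 3, against 9.88 on ZNF658 siRNA 2 replicate 3 and 10.22 and 10.06 on control siRNA 2 replicates 1 and 2. State 1 averaged 13.37 ± 1.59 and state 2 averaged 10.05 ± 0.17 (SD, n = 3 each), a difference of 3.32, or 9.97-fold. All 3 arrays of state 1 were above state 2, and the array labelled control siRNA 2 was the lowest of the 3. Before normalization the same probe had intensities of 13184, 20351 and 3038 in state 1, in the order just given, and of 1467, 1228 and 1229 in state 2. The brighter 28S probe, RNA28SN5, read 10.67, 10.72 and 11.29 in state 1, in the same order, and 6.66, 8.37 and 7.93 in state 2, a difference of 3.24. Here control siRNA 2 replicate 3 was the highest array. A second, dimmer 28S probe differed by 1.48. Ribosomal DNA is present in many near-identical copies, so these probes do not stand for a single locus.

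IGF2, an imprinted fetal growth factor on chromosome 11, had the next largest difference among named genes, and both of its probes separated the states. The brighter one read 10.28, 10.71 and 9.93 in state 1, against 7.98, 7.72 and 7.88 in state 2, a difference of 2.45, and the other differed by 2.81. A list of imprinted growth genes, to which IGF2BP1 and IGF2BP2 were added as partners of IGF2, had 17 measured members. GRB10, an adaptor that restrains insulin and IGF signalling, was higher in state 1 by 0.73. PHLDA2, a placental growth restrictor, was lower by 1.07 on the log2 scale. Its levels were 6.34, 5.63 and 6.05 in state 1, where it was detected on 2 arrays, against 6.87, 6.99 and 7.37 in state 2. IGF2BP2, which binds IGF2 mRNA, was higher by 0.56, while IGF2BP1 was lower by 0.55. The 17 genes as a list had 3 higher and 2 lower members (17.6% and 11.8%), near the shares of all named genes (15% and 16.4%).

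**Figure D2:**
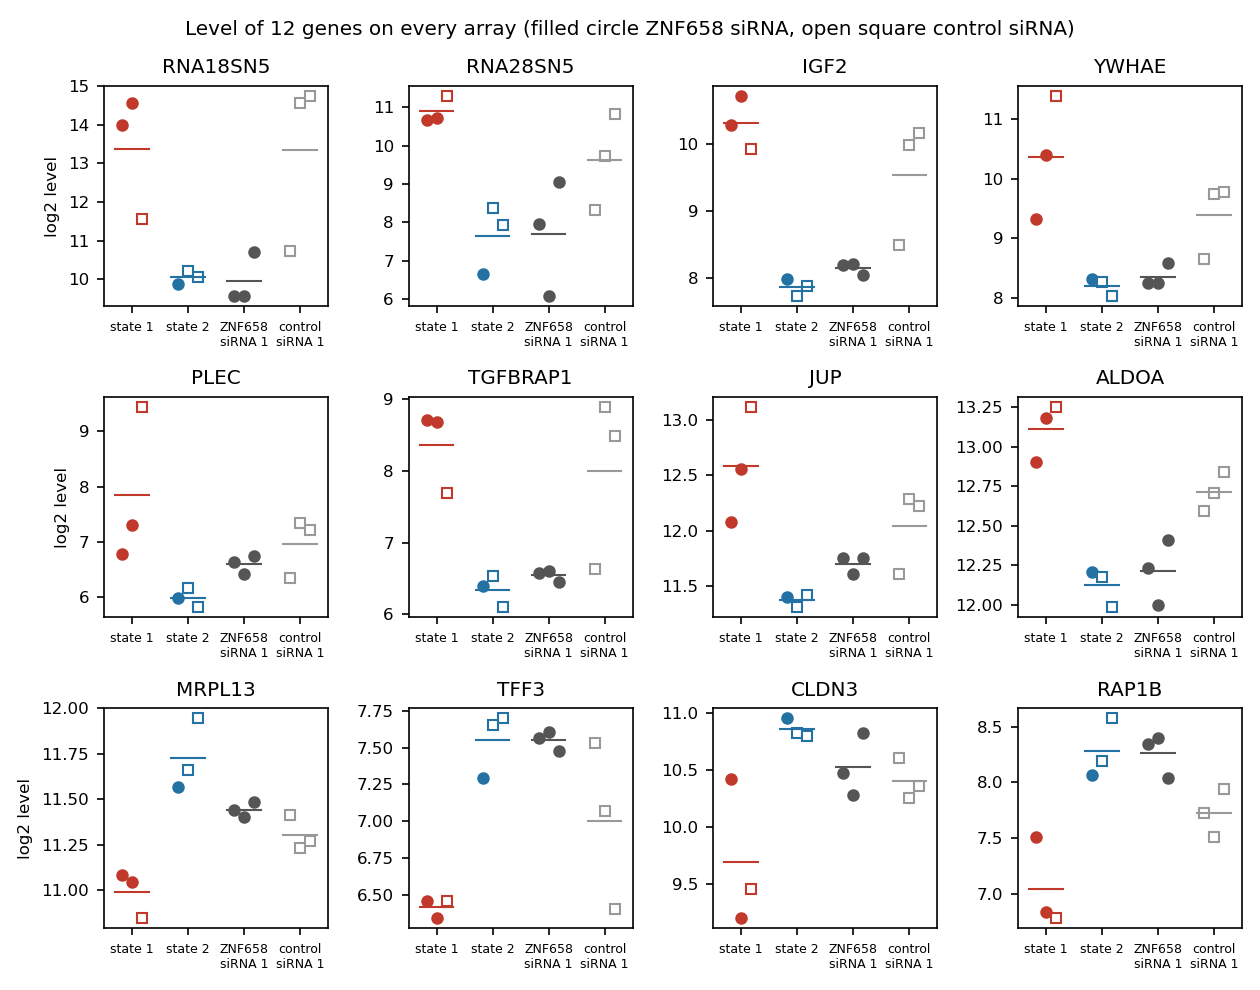
Log2 level of 12 genes on every array, with state 1 at the left, then state 2, then the Ambion ZNF658 siRNA 1 and control siRNA 1 arrays; filled circles are ZNF658 siRNA, open squares control siRNA, and lines are means of 3. The 18S probe reached 11.56 to 14.55 in state 1 and 9.88 to 10.22 in state 2, and 14.55 and 14.74 on control siRNA 1 replicates 2 and 3.

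The other genes with large differences were of several kinds, among them UBALD1 with a difference of 2.04 and TAF6, a subunit of the general transcription factor TFIID, with 1.85. In state 2 UBALD1 was detected on 1 array and TAF6 on 2, and a second TAF6 probe overlapped between the states. YWHAE, a 14-3-3 adaptor, read 9.32, 10.39 and 11.38 in state 1 against 8.32, 8.26 and 8.03 in state 2, a difference of 2.16, and its second probe differed by 0.79. TGFBRAP1, a TGF-beta receptor-associated protein, read 8.71, 8.69 and 7.70 in state 1 against 6.40, 6.54 and 6.10 in state 2, a difference of 2.02. EXPH5, a Rab27 effector, differed by 1.72, AAK1, a kinase of clathrin adaptors, by 1.60, and AP2A1, a clathrin adaptor subunit, by 1.60. AP2A1 was detected on 2 arrays of state 2. CNOT3, of the deadenylase complex that shortens poly(A) tails, differed by 1.57, PRRC2A, an RNA-binding protein, by 1.64, and TRIM71, a ubiquitin ligase of early development, by 1.58. NOTUM, a secreted WNT inhibitor, read 8.31, 9.05 and 10.15 in state 1 against 7.74, 7.49 and 7.28 in state 2, a difference of 1.67.

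These genes split by where control siRNA 2 replicate 3 lay. In RNA18SN5, IGF2, TGFBRAP1, EXPH5, AAK1, GGA3 and TRIM71 it was the lowest of the 3 arrays of state 1. In PLEC, YWHAE, NOTUM, MGRN1 and CNOT3 it was the highest: PLEC, plectin, which links intermediate filaments to the membrane, read 6.78 and 7.31 on ZNF658 siRNA 2 replicates 1 and 2 and 9.44 on control siRNA 2 replicate 3, against 5.99, 6.17 and 5.82 in state 2. For PLEC the difference of 1.85 is thus set mostly by that array, while for TGFBRAP1 the difference is larger without it.

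Genes of lower level in state 1 showed smaller differences. RAP1B, a small GTPase of adhesion, read 7.50, 6.83 and 6.78 in state 1 against 8.06, 8.19 and 8.58 in state 2, a difference of −1.24. TFF3, the trefoil peptide of goblet cells, read 6.46, 6.34 and 6.46 in state 1 against 7.29, 7.65 and 7.70 in state 2, a difference of −1.13. EXOSC8, a subunit of the RNA exosome, differed by −1.17 and ATP5MC3, a subunit of ATP synthase, by −1.03. KGD4, a subunit of the oxoglutarate dehydrogenase complex first named as a mitochondrial ribosomal protein, differed by −1.17. In state 1 KGD4 was detected on 2 arrays. The state 1 arrays spread little in TFF3 (6.42 ± 0.07, against 7.55 ± 0.22 in state 2; SD, n = 3 each).

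Promoters of the separating genes, which move together because they were chosen to, were also inspected. The RefSeq promoter windows of the most different gene in each direction with a sequence are shown here, 300 bases each in GRCh38.p14, 5′ to 3′ on the gene's strand, with matches to GGGCGG on either strand in capitals. YWHAE lies on chromosome 17 (chr17:1400173-1400472, minus strand) and RAP1B on chromosome 12 (chr12:68610649-68610948, plus strand).
YWHAE: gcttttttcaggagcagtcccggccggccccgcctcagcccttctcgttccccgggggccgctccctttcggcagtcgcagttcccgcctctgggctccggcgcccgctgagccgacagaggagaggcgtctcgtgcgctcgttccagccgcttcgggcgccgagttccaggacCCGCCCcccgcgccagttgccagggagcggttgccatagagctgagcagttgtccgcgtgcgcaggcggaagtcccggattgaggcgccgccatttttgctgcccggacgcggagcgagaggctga
RAP1B: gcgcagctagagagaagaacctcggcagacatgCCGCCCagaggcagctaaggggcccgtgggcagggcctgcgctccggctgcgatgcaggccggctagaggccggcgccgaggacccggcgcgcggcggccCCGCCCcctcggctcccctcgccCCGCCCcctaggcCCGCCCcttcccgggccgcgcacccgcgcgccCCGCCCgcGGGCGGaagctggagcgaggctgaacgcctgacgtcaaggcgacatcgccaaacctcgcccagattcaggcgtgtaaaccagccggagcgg
YWHAE, higher in state 1, held 1 match and RAP1B, lower in state 1, held 6. Over the promoters of 2-fold higher genes, 117 of 161 held GGGCGG (72.7%), over those of 2-fold lower genes 11 of 13 (84.6%), and over all tested named genes 71.0%, against 44.6% of all 27305 promoters in the table. The median GC content was 67.7% in both 2-fold sets and 65.3% over all tested named genes. TATAAA was found in 3.7%, 15.4% and 5.7% of the same sets of higher, lower and all tested genes, and the ZTRE motif, searched by its consensus on both strands, in 38.5%, 15.4% and 30.0%. At 1.2-fold the ZTRE motif stood in 33.2% of promoters of higher genes and 26.3% of those of lower genes. A match is a description of the letters only.

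The chromosomal positions of the separating genes were uneven. Of the 201 named genes that were 2-fold higher in state 1 by their brightest probe, 86 (42.8%) lay on chromosomes 16, 17, 19 and 22, against 2 of 21 (9.5%) for those 2-fold lower and 1838 of all 9200 tested genes with a position. Chromosome 19 alone held 38 of the 201 (18.9%) and 6.8% of all tested genes. At 1.2-fold the share on these 4 chromosomes was 30.9% of 1377 higher genes and 14.2% of 1507 lower genes. Without control siRNA 2 replicate 3 the 2-fold share was 43.9%, and with both replicate 3 arrays left out 47.3%. The 4 chromosomes were chosen after their values were seen. The median gene span was 23279 bases for the 2-fold higher genes, 12399 for the 21 genes 2-fold lower and 27349 for all tested genes.

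**Figure D3:**
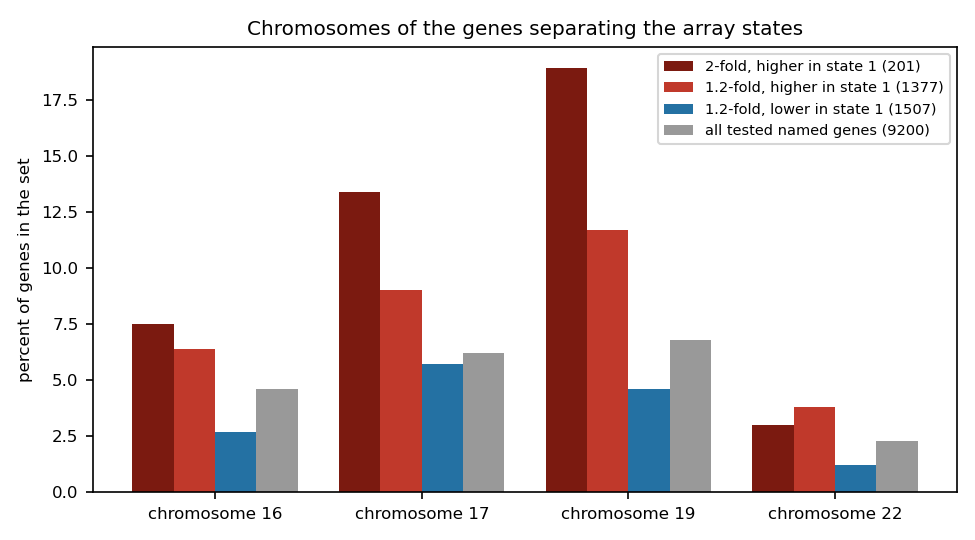
Percent of named genes lying on chromosomes 16, 17, 19 and 22, for genes 2-fold higher in state 1, 1.2-fold higher, 1.2-fold lower, and all 9200 tested genes with a position. Chromosome 19 held 18.9% of the 2-fold higher genes and 6.8% of all tested genes.

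The 2-fold separating genes of both directions were also dim. The median level of the higher genes was 8.18 in state 1 and 6.94 in state 2, and that of the lower genes 6.70 and 7.74. The median over all named genes was 8.41 in both. The lower value of each pair is set in part by choosing genes for their difference. At low levels the number of arrays limits precision, and 18 of the 341 probes were undetected on all arrays of the lower state. Where a gene had several probes, they agreed in part. Among 96 genes with 2 or more tested probes and at least 1 separating 2-fold, all probes separated 2-fold in 11. Of the 109 other probes, 47 separated at 1.2-fold in the same direction, 5 in the opposite direction and 57 not, and their median difference was 0.41 in the direction of the separating probe. HCFC1R1, a regulator of HCF-1, had probes of both directions, with 1 probe lower in state 1 by 1.39 and the brighter probe higher by 0.75. CASP6, a caspase, was lower with all 3 probes, by 0.41, 1.12 and 0.40. JUP, plakoglobin of desmosomes and adherens junctions, was higher with all 3, by 1.21, 1.67 and 1.85.

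Over the 9203 named genes, by their brightest probe, 1377 separated the states at 1.2-fold upwards in state 1 (15%) and 1507 downwards (16.4%). Gene lists are set beside these shares. Simple epithelial keratins and junction proteins stood well above the upward share, with 15 of 36 higher and 3 lower, and a median 0.33 above that of all named genes. KRT8, the keratin of simple epithelia, read 13.20, 13.41 and 13.86 in state 1 against 12.57, 12.50 and 12.55 in state 2. DSP, desmoplakin, was higher by 0.91, CDH1, E-cadherin, by 0.61, CLDN6, a claudin of fetal epithelia, by 1.35, ST14, the protease matriptase, by 1.08 and SPINT1, its inhibitor, by 1.13. CLDN3, another claudin, went the other way, at 10.42, 9.19 and 9.46 in state 1 against 10.96, 10.83 and 10.80 in state 2. With both replicate 3 arrays left out, the states held 2 arrays each and 1797 of all 9203 named genes were higher and 1856 lower, and 16 of the 36 were higher and 4 lower.

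Tubulins showed the highest upward share, 7 of 13 against 2 lower and a median 0.39 above all named genes, with TUBB4B higher by 0.97 and TUBD1, a centriolar tubulin, lower by 0.96. Of 46 genes of the actin cytoskeleton and adhesion, 15 were higher and 5 lower, with a median 0.11 above all named genes. ACTN4, an actin cross-linker, was higher by 1.28, GSN, gelsolin, by 0.92 and TPM4, a tropomyosin, by 1.08 and 1.96 with its 2 probes. ACTB read 14.18, 14.20 and 14.60 in state 1 against 13.81, 13.46 and 13.62 in state 2. GAPDH, a common reference gene, was higher by 0.37.

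Glycolysis and hypoxia genes were higher in 11 of 31 and lower in 3, with a median 0.28 above all named genes. The higher members were mainly enzymes of glycolysis: ALDOA read 12.91, 13.18 and 13.25 in state 1 against 12.21, 12.18 and 11.98 in state 2, PKM was higher by 1.14, PFKL by 1.08, PGAM1 by 0.76, TPI1 by 0.58 and GPI by 0.62. ADM, ANKRD37 and BNIP3, targets of the hypoxia response, were lower by 0.60, 0.54 and 0.36. Translation factors were higher in 13 of 41 and lower in 5, among them EIF4G1, a scaffold of cap binding, by 0.89 and PABPC4, a poly(A)-binding protein, by 0.84, while EIF4E, the cap-binding protein, was lower by 0.76. Of 17 aminoacyl-tRNA synthetases, VARS1, MARS1 and FARSA were higher (17.6%), near the share of all named genes, and none was lower, with a median 0.26 above all named genes.

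**Figure D4:**
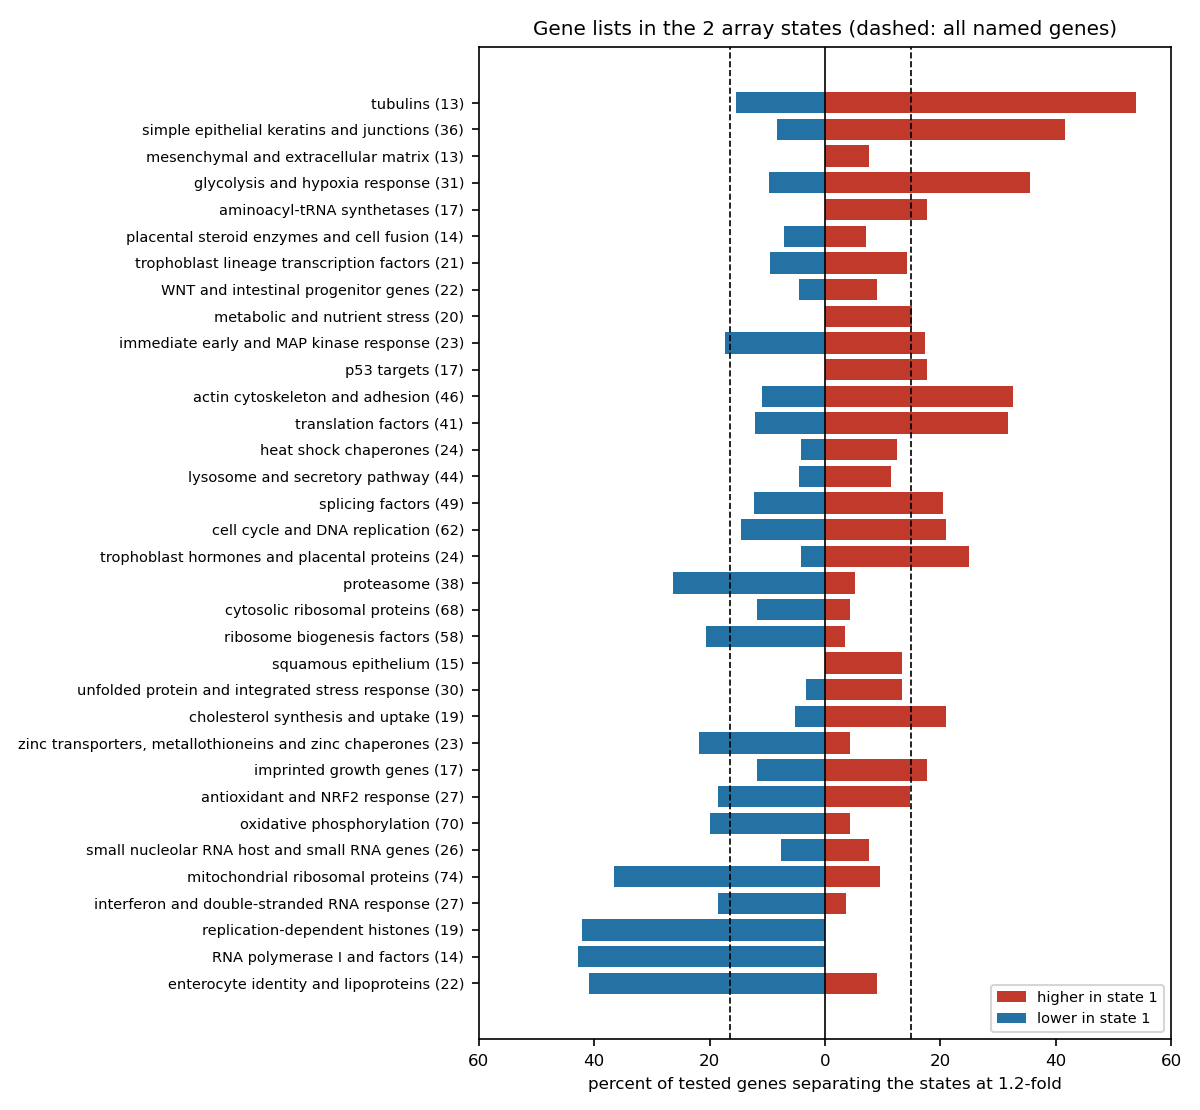
Percent of the tested genes of each list that separated the states at 1.2-fold, higher in state 1 to the right and lower to the left, for lists of 10 or more tested genes (number in brackets); dashed lines are all named genes (15% and 16.4%). Tubulins and keratins lead on the higher side, RNA polymerase I, histones and enterocyte genes on the lower side.

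Mitochondrial ribosomal proteins were the largest list of the lower kind, with 27 of 74 lower in state 1, 7 higher, and a median 0.18 below all named genes. MRPL13, a large subunit protein, read 11.08, 11.05 and 10.84 in state 1 against 11.57, 11.66 and 11.95 in state 2. MRPL17 was lower by 0.80, MRPS18A by 0.64 and MRPS31 by 0.57, while MRPL4 was higher by 0.72 and MRPS34 by 0.58. With both replicate 3 arrays left out, 32 were lower and 8 higher, beside 1856 and 1797 of all 9203. Oxidative phosphorylation was lower in 14 of 70 and higher in 3, close to the share of all named genes on the lower side. With both replicate 3 arrays left out, 30 were lower and 2 higher, beside the same 1856 and 1797. COX7B, of cytochrome oxidase, was lower by 0.60, and NDUFA5, of complex I, by 0.61, while UQCRC1, of complex III, was higher by 0.59. The median of this list lay 0.13 below all named genes.

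RNA polymerase I and its factors were lower in 6 of 14 and higher in none, with a relative median of −0.26, beside the higher ribosomal RNA probes. POLR1G, a subunit, read 6.55, 6.24 and 6.39 in state 1 against 6.98, 7.10 and 7.62 in state 2. TAF1D, of its promoter factor SL1, was lower by 0.57, TAF1B, of the same factor, by 0.47 and POLR1E by 0.44. Ribosome biogenesis factors were lower in 12 of 58 (20.7%), close to the share of all named genes (16.4%), and higher in 2. Their relative median was −0.03. PES1 was lower by 0.72, NIP7 was lower by 0.72, and TBL3, which was undetected on every state 2 array, was at least 1.76-fold higher. Cytosolic ribosomal proteins were lower in 8 of 68 and higher in 3, below both shares of all named genes, so the ribosomal RNA difference had no counterpart of like size in them. RPS7 was lower by 0.47, and RPLP2, a stalk protein, was higher by 0.43.

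Replication-dependent histone genes, whose mRNA ends in a stem loop in place of a poly(A) tail, were lower in 8 of 19 and higher in none, with a relative median of −0.23. H4C8 was lower by 0.71 and H2AC6 by 0.70. Enterocyte and lipoprotein genes were lower in 9 of 22 and higher in 2, with a relative median of −0.36. KLF5, a transcription factor of gut epithelium, read 8.95, 9.14 and 8.67 in state 1 against 9.64, 9.79 and 9.76 in state 2. The apolipoproteins APOC3, APOA2 and APOA1 were lower by 0.78, 0.66 and 0.63, while APOE was higher by 1.16. The proteasome had 10 of 38 lower and 2 higher, but its median lay at that of all named genes (relative median −0.0007), with PSMD12 lower by 0.56 and PSMD3 higher by 0.76.

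Genes tied to interferon and zinc stood close to the share of all named genes on the lower side by count, with relative medians of −0.22 for interferon and −0.05 for zinc. Of 27 interferon and double-stranded RNA response genes, 5 were lower and 1 higher, with ISG20, an exonuclease, lower by 0.85 and IFIH1, the RNA sensor MDA5, lower by 0.84. IFIT1 and IFIT2 did not separate, with differences of −0.59 and −0.11. Of 23 zinc genes, 5 were lower and 1 higher: the metallothioneins MT1E and MT1F by 0.95 and 0.58, the zinc transporters SLC30A6 by 0.66, SLC30A5 by 0.28 and SLC39A3 by 0.50, and SLC39A1, an importer, higher by 0.40. MT2A and MT1X overlapped between the states. In state 1 MT1E was detected on 1 array, and ISG20 and IFIH1 on 2. No tested probe was named SLC30A10. The ZNG1 genes, formerly CBWD, are near-identical copies, and ZNG1A, ZNG1C and ZNG1E overlapped between the states with differences of −0.26, 0.02 and −0.25.

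Trophoblast genes gave no single direction. Placental hormones were higher in 6 of 24 and lower in 1, with LHB, a gonadotropin subunit, higher by 1.35 and ALPG, a placental-type phosphatase, by 0.87. The CGB and LHB genes are near-identical copies that probes can share. Of 21 lineage transcription factors, GATA3, DLX3 and ARID3A were higher, by 0.56, 0.70 and 0.61, and KLF5 and TEAD3 were lower. The median of the placental hormone list lay 0.01 above that of all named genes and changed sign under quantile normalization without background correction, under median scaling, with the authors' values and without control siRNA 2 replicate 3, alone or with ZNF658 siRNA 2 replicate 3. Cell cycle genes were split, with 13 of 62 higher and 9 lower, and their relative median changed sign under the first 3 of these settings: MCM5 and MCM2 of the replicative helicase were higher by 0.91 and 0.72, E2F1 was lower by 0.94 and CCNB1 by 0.44. E2F1 was detected on 2 arrays of state 1. Splicing factors were higher in 10 of 49 and lower in 6, with a relative median that changed sign under median scaling. PRPF8 was higher by 0.91 and SNRPE lower by 0.72.

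The Ambion arrays, which share no array with either state, lay between the states in the mean of the same probes. Averaged over the 302 probes higher and the 39 lower in state 1, the higher minus lower difference was 0.95, 1.63 and 2.42 in state 1 and −0.58, −0.73 and −0.74 in state 2. It was −0.24, −0.43 and −0.29 on the 3 ZNF658 siRNA 1 arrays, and −0.17, 0.65 and 0.88 on control siRNA 1 replicates 1, 2 and 3. Control siRNA 1 replicates 2 and 3 thus lay on the side of state 1, and control siRNA 1 replicate 1 lay with the ZNF658 siRNA 1 arrays. The 18S probe read 9.58, 9.57 and 10.70 on ZNF658 siRNA 1 and 10.74, 14.55 and 14.74 on control siRNA 1, so control siRNA 1 replicates 2 and 3 were as high as the highest array of state 1 or higher, and the order of the arrays was not that of the mean over the separating probes. Of the 341 probes, 306 (89.7%) moved in the opposite direction in ZNF658 siRNA 1 against control siRNA 1, where 62.2% of all 14804 probes did so. Across all probes the state difference and that effect correlated at −0.40, a description across probes, which are not independent replicates.

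**Figure D5:**
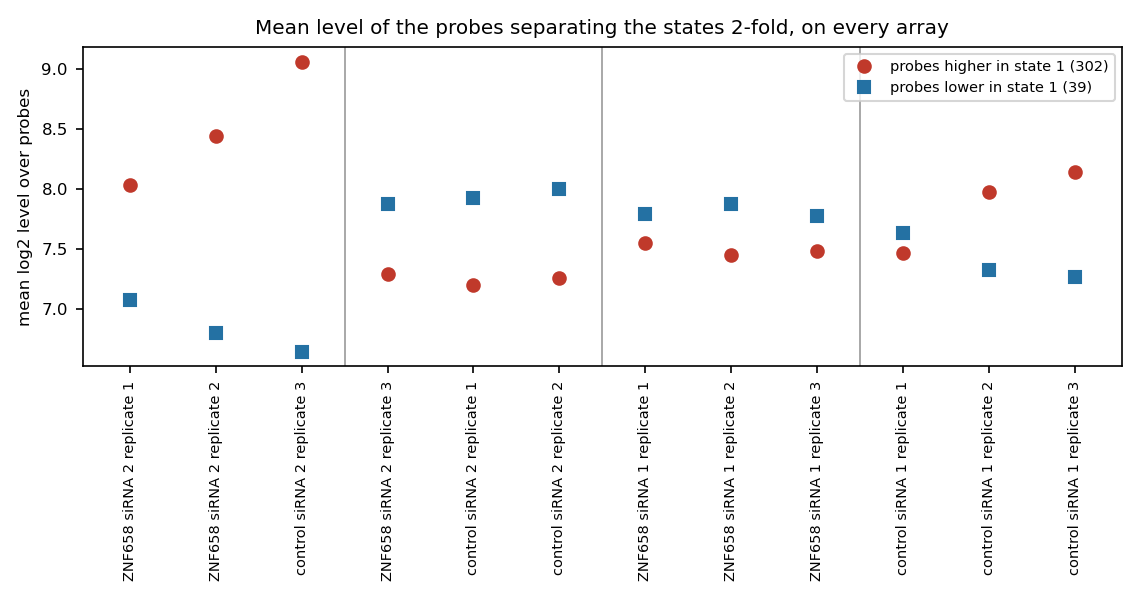
Mean log2 level of the 302 probes higher (red circles) and the 39 probes lower (blue squares) in state 1, on each of the 12 arrays ordered as state 1, state 2, ZNF658 siRNA 1 and control siRNA 1. The circles lie above the squares in state 1 and on control siRNA 1 replicates 2 and 3, and below them on the other 7 arrays.

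Within each state, arrays of both labels can be compared, though with 1 array of one label against 2 of the other and no test. In state 1 ZNF658 siRNA 2 replicates 1 and 2 were set against control siRNA 2 replicate 3, and in state 2 ZNF658 siRNA 2 replicate 3 against control siRNA 2 replicates 1 and 2. At 1.2-fold or more in both, 1791 probes moved the same way (12.1%), 987 higher and 804 lower with ZNF658 siRNA 2. Over all probes 56.1% had the same sign in both states, and the 2 differences correlated at 0.16 across probes. DKK3, a secreted protein of the Dickkopf family, read 8.05 and 7.32 with ZNF658 siRNA 2 against 6.43 with control siRNA 2 in state 1, and 8.18 against 7.01 and 7.28 in state 2. Its difference was 1.25 in state 1 and 1.03 in state 2. The genes named here, other than TAGLN, are some of those picked by the smaller of their 2 within-state differences. The brighter TAGLN probe moved further in state 1, at 11.87 and 11.67 against 9.92. In state 2 it moved less, at 11.37 against 10.57 and 10.97. MYCT1 was higher by 1.19 and 0.88 and PLAAT3, a phospholipase, by 0.87 and 1.01. COTL1, an actin-binding protein, was lower by 1.12 and 0.89 and NUP188, a nuclear pore protein, by 0.91 and 0.82. Among the 341 probes, 33 moved the same way in both states.

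By label, limma called no probe between ZNF658 siRNA 2 and control siRNA 2 (0% of 14804) at an adjusted P value under 0.05 and 1.2-fold. The lowest adjusted P value was 0.818, and 837 probes had an unadjusted P value under 0.05. With array quality weights limma called 600 probes. With both replicate 3 arrays left out it called 268, but the labels then coincide with the states. ZNF658 siRNA 2 replicates 1 and 2 are state 1 arrays, and control siRNA 2 replicates 1 and 2 are state 2 arrays. The grouping was chosen from these values, so the 268 calls are no test of the siRNA. RNA18SN5 differed by 2.20 on the log2 scale by label (SE 1.07, limma adjusted P 0.895, n = 3 each), with the array labelled control siRNA 2 replicate 3 above ZNF658 siRNA 2 replicate 3. Between ZNF658 siRNA 1 and control siRNA 1, limma called 2 probes (0.0135%), IFIT1 and IFIT2, antiviral proteins induced by interferon. IFIT1 was higher with ZNF658 siRNA 1 by 2.09 (SE 0.30, limma adjusted P 0.0329) and IFIT2 by 2.22 (SE 0.23, limma adjusted P 0.00104). Neither of these is among the probes that separated the states. The difference between the effects of the 2 ZNF658 siRNAs was called by limma for 0 probes, with 1597 at an unadjusted P value under 0.05.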

How the data were processed

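The arrays were exported by the authors from the bead chip scanner software as unnormalized probe intensities. The deposited detection P values, given beside each intensity, compare a probe with negative control probes. The authors' second table holds log2 values after variance stabilizing normalization with lumi, whose version is not given in the sources used here, and keeps 21105 of 47231 probes. The authors called changes with a rank product test at 1.2-fold.

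From the intensities, background was corrected by normexp and the arrays were quantile normalized (neqc, offset 16; limma 3.58.1, R 4.3.3). A probe was tested where, in at least 1 labelled group, its detection P values were below 0.01 in the whole set of 3 arrays (14804 probes). The labelled comparisons were fitted with limma over 12 arrays, with Benjamini-Hochberg adjustment over all probes. These P values measure only the spread between arrays. The states were described by level, difference and overlap, with no test. Gene names came from GEO's platform annotation (15540 probes with 1 symbol, 3 with several), and 2936 tested probes had no name. Each gene was read by its brightest tested probe. Named genes were up to 20 each way with the largest state difference, up to 5 members of each list, the ribosomal RNA, reference, interferon and zinc genes, and up to 5 each way that moved within both states; further list members were chosen after their values were seen. Promoters and positions came from RefSeq. The members, lists and rules were chosen with earlier results of these data known, and the alternatives on chromosome shares were added after seeing the data. The scripts were tested on simulated data. The number of arrays limits the precision.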

Additional observations from a re-analysis of the deposited data

How the results depend on the processing

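The count of probes separating the states at 2-fold was 341, and it was 62 with quantile normalization without background correction (60 higher), 163 with an offset of 50 (157 higher) and 36 with the authors' log2 values (35 higher). At 1.2-fold the authors' values gave 3007 (1528 higher), against 4513. The share of separating probes on the opposite side in the Ambion comparison was 89.7%, and 96.8%, 96.9% and 97.2% under the same 3 settings. Probes moving the same way within both states numbered 1791, and 642 with quantile normalization alone, 449 with the authors' values and 3689 with no detection filter. The number of 35 gene lists with a median above that of all named genes was 18, and between 15 and 22 under the processing alternatives. The cause of these shifts was not tested. Leaving out 1 array at a time gave 174 probes at 2-fold (without control siRNA 2 replicate 3) to 791 (without ZNF658 siRNA 2 replicate 1), and 4960 to 6843 at 1.2-fold, lowest and highest without the same arrays. It gave 77.0% to 95.0% on the opposite side, 1523 to 2250 probes within both states and 17 to 21 lists. The result within both states could not be computed without ZNF658 siRNA 2 replicate 3 or control siRNA 2 replicate 3.

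By label, ZNF658 siRNA 2 against control siRNA 2 gave 0 calls, 0 when any 1 array was left out, 600 with array quality weights and 10 by rank product (50 permutations). It gave 268 with both Dharmacon replicate 3 arrays left out. The labels then coincide with the states, which were chosen from these values, so the 268 calls are no test of the siRNA. ZNF658 siRNA 1 gave 2 calls, and 10 with median scaling, 0 among probes detected on all arrays, 841 with weights, 49 by rank product and 1 to 7 when any 1 array was left out. With the replicate number as a block, ZNF658 siRNA 2 gave 0 calls and ZNF658 siRNA 1 gave 1. Same-numbered arrays had residual correlations, around the means of the labelled groups, of 0.00, −0.38 and −0.59 in the Dharmacon pair. In the Ambion pair these were −0.14, 0.07 and −0.02. The Dharmacon residuals hold the split into states, with the 2 replicate 3 arrays in opposite states. These values therefore cannot decide whether the numbers pair the samples. Low signal over background limits the 18 probes undetected on all arrays of the lower state.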
